A study of Mus musculus with 6 samples.

Results

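The genes described here encode the receptors for glutamate and GABA, the main excitatory and inhibitory transmitters of the brain. They were taken as every gene symbol of the authors' deposited table that begins with Gria, Grid, Grik or Grin and a digit, is Grm and a single digit, or begins with Gabr or Gabbr. This gave 36 symbols with 138 accessible regions, of 18755 symbols and 92864 regions in all. Of these symbols, 34 name a receptor subunit and 2 do not: Grid2ip encodes a synaptic scaffold protein, and Grin1os is an RNA gene on the opposite strand at Grin1. The ionotropic glutamate receptors included the AMPA subunit gene Gria3, the kainate subunit genes Grik1 to Grik5, the delta gene Grid1 and the NMDA subunit genes Grin1, Grin2a, Grin2b, Grin2c, Grin2d, Grin3a and Grin3b. The metabotropic glutamate receptors included Grm2, Grm3, Grm4, Grm6, Grm7 and Grm8. The GABA receptors were the GABA-A subunit genes Gabra5, Gabra6, Gabrd, Gabre, Gabrg3, Gabrp, Gabrq, Gabrr1, Gabrr2 and Gabrr3, and the GABA-B subunit genes Gabbr1 and Gabbr2.

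Open chromatin was profiled by ATAC-seq, in which the Tn5 transposase inserts sequencing adapters where DNA is accessible, in myeloid cells sorted from orthotopic brain tumours of the isogenic mouse glioma line SB28. The cells came from wild-type mice. Bone marrow derived macrophages (BMDM, 3 libraries) were F4/80+ CD11b+ CD45+ LY6Clo/- LY6G- cells with high CD49d, and microglia (MG, 3 libraries) were F4/80+ CD11b+ CD45lo LY6Clo/- LY6G- cells with low or no CD49d. The groups are thus defined by the sort alone, without tracing of their origin, and no tumour-free brain enters the comparison. The labels give no age. Whether each library is a separate animal is not given either, and p-values therefore cover no more than the spread among these 6 libraries, which may be technical.

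Reads in regions numbered 7167211, 19727511 and 4910448 in BMDM 1, 2 and 3 and 19244734, 23601865 and 12531808 in MG 1, 2 and 3. A limit of 3 reads corresponded to between 1.64 normalized counts in MG 2 and 5.95 in BMDM 1, which covers counting error only. Of 11 monocyte and macrophage markers tested, 7 were called for BMDM (higher there, limma adjusted p under 0.05) and 0 for MG, and of 12 microglial markers 0 were called for BMDM and 2 for MG. In these calls the groups differed the way their labels say. Summed, however, the 12 microglial genes overlapped between the groups. They held 11252, 9572 and 7482 counts in BMDM 1, 2 and 3 and 17921, 10592 and 12055 in MG 1, 2 and 3. MG 2 thus lay below BMDM 1. Of the 12, 10 were highest in MG 1, 1 in MG 2 and 1 in BMDM 1. The summed counts of 12 oligodendrocyte lineage genes were 6070, 5865 and 4982 in BMDM 1, 2 and 3 and 6586, 15227 and 9671 in MG 1, 2 and 3, with 0 genes called for BMDM and 5 for MG. Those of 9 neuronal genes were 1902, 1998 and 1926 in BMDM and 2540, 3854 and 2785 in MG, with 0 called for BMDM and 2 for MG, and those of 8 astrocyte genes 1613, 1495 and 1727 in BMDM and 1811, 3022 and 2042 in MG, with 0 called for BMDM and 1 for MG. MG 2 was the highest library in all 3 of these neural lists, MG 3 was well above MG 1 in the oligodendrocyte list, and it was closer to MG 1 in the other two. Endothelial markers had 1 of 9 called in each direction, and neutrophil markers and T and NK cell markers each had 2 of 8 called for BMDM and 0 for MG. None of the neural genes tested was at 0 in any library.

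Glutamate opens AMPA, kainate and NMDA receptors, which are cation channels, and acts through G proteins on metabotropic receptors. GABA opens chloride channels of the GABA-A type and signals through the G-protein-coupled GABA-B receptor, a dimer of the products of Gabbr1 and Gabbr2. Most of these genes are known for their expression in neurons and glia, while microglia are known to carry a few of the receptors, GABA-B and some metabotropic ones among them. Accessibility of a region does not measure transcription, and in sorted cells a signal in a small share of cells and a weak signal in all cells cannot be told apart.

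Of the 138 regions 45 lay in promoters, 49 in introns, 11 in exons, 1 in a 3′ UTR and 32 between genes. Promoters made up 32.6% of them, against 30.0% of all regions, and 11.6% lay more than 100 kb from a start site, against 5.77% of all regions. They were weak: their median mean normalized count was 22.7, against 45.0 over all regions. Regions are assigned to the gene with the nearest start site, and 93 of the 138 overlapped their own gene in RefSeq (GRCm38.p6, the build mm10). The other 45 did not, among them all 7 regions assigned to Grm7 and all 3 assigned to Grm3. Gabbr2 had 24 regions, Grik4 11 and Grm4 10, while 15 genes had 1 each.

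Promoter sequences were matched by symbol in the RefSeq table (GRCm38.p6, 250 bases before to 50 after each start), which held 30 promoters of 26 of the 36 genes. The 4 printed here are those of Grik4, Grik3 and Grid2ip, because they overlap promoter regions called higher in MG and described below, and that of Grm2, because it alone among the 30 holds both parts of the RE1 site bound by the neuronal gene repressor REST. Each reads 5′ to 3′ on the gene's strand. Capitals mark GC boxes (GGGCGG, or CCGCCC on the other strand), and in Grm2 also the RE1 parts TTCAGCACC and GGACAGC.
Grik4, chr9:42944322-42944621, minus strand: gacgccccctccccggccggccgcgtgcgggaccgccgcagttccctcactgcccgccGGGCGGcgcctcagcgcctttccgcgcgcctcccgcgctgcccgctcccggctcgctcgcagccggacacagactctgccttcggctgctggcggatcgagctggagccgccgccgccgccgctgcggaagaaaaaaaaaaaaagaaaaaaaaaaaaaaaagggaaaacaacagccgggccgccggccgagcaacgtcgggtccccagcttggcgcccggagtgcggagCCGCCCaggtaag
Grik3, chr4:125490446-125490745, plus strand: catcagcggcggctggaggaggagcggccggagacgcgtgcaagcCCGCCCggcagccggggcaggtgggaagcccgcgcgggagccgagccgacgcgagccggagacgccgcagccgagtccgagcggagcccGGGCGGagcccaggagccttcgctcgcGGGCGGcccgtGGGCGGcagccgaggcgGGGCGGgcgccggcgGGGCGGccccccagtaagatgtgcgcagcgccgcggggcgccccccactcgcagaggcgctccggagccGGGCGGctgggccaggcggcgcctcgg
Grid2ip, chr5:143363663-143363962, plus strand: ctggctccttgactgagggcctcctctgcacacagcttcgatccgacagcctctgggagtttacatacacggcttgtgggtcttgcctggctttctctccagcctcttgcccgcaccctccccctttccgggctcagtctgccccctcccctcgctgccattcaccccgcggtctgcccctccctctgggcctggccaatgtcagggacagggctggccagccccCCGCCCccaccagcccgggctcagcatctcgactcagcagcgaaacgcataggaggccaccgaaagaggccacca
Grm2, chr9:106656060-106656359, minus strand: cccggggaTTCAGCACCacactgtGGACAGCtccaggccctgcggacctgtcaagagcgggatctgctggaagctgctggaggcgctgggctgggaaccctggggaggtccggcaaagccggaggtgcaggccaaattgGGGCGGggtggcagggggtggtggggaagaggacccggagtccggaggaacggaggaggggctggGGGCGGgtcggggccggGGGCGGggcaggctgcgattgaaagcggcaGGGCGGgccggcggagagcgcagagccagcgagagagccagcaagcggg

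Searched on both strands, the GC box was present in 18 of the 30 promoters (60.0%), against 35.7% of 32851 promoters. The TATA box letters TATAAA were found in 1 of 30 (3.33%), that of Grin3b, against 13.6% of all. The left and right parts of RE1 were each in 1 of 30 (3.33%), against 0.371% and 6.56% of all, and the letters GAGGAAGT of a PU.1 site, the motif of a myeloid transcription factor, were in 0 of 30, against 3.20%. CG dinucleotides numbered 50 in the Grik3 promoter, 42 in that of Grik4, 22 in that of Grm2 and 14 in the printed Grid2ip promoter. The median was 13 in the 30 promoters and 7 in all. These matches describe letters in 300-base windows and not bound sites.

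For each gene the normalized counts of its regions within 100 kb of a start site were summed. Of the 36 genes 33 had such a region (Grin3a, Grm3 and Grm7 had none) and 31 passed the filter of a mean of 10 counts, which Gabra6 and Gabrq did not. Differences are BMDM minus MG on the log2(normalized count + 1) scale, given relative to the median gene (-0.27), region (-0.14) or promoter (-0.31), while p tests the difference before that shift. Past the threshold (limma adjusted p under 0.05, called below) 1 receptor gene was higher in BMDM and 0 higher in MG, and the 1 call was lost when any one of the 3 BMDM libraries was left out. Of all genes tested 2.14% were called higher in BMDM and 3.51% in the MG direction, so 1 and 0 of 31 is close to or below the background. At an unadjusted p under 0.05, 2 receptor genes were higher in BMDM and 6 lower. Relative differences were below 0 for 16 genes and above 0 for 15, with a median of -0.07 (0 for all genes by construction). All BMDM libraries lay above all MG libraries for 4 genes (background 6.87%) and below them for 7 (background 21.5%).

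**Figure D1:**
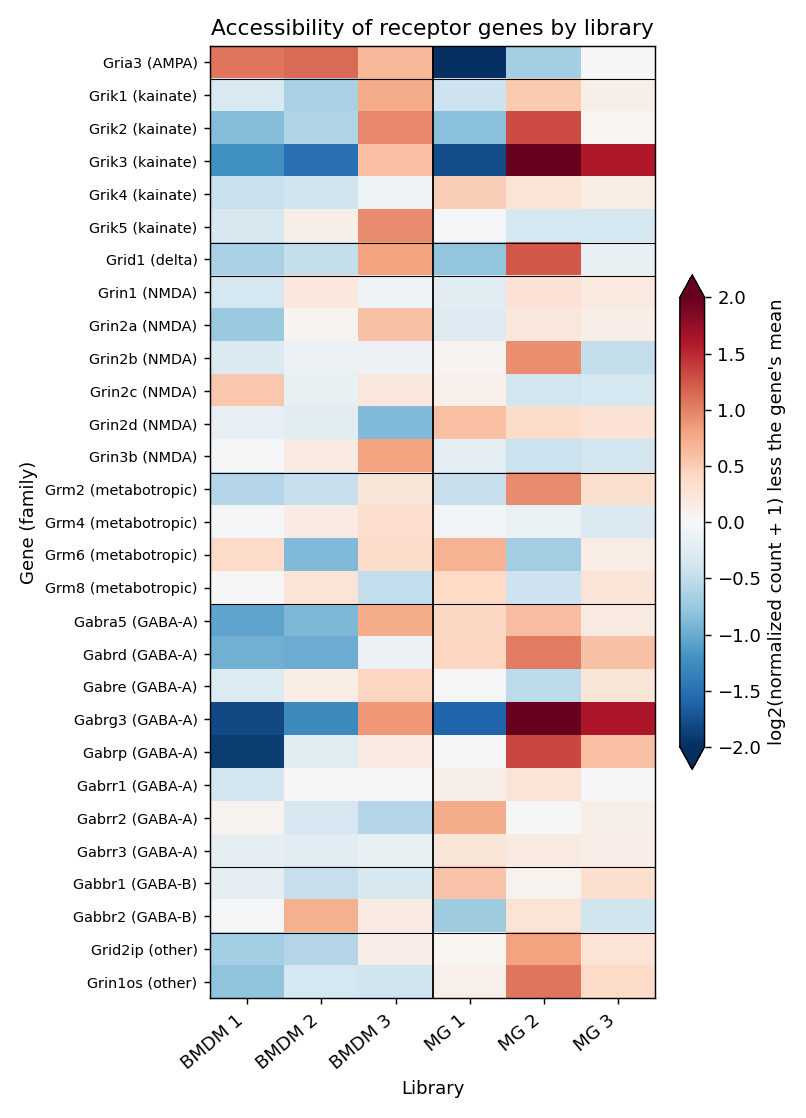
Heat map of log2(normalized count + 1) less the gene's mean over the 6 libraries, for 29 of the receptor genes tested (rows, by family) in the 3 BMDM and 3 MG libraries (columns), with colours capped at 2 either way. Gria3 is high in all 3 BMDM libraries, while Grik3 and Gabrg3 are high in MG 2 and MG 3 and low in MG 1.

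Over the single regions, 123 of the 138 were tested. All BMDM libraries lay above all MG libraries at 22 of them (background 17%) and below at 19 (background 12.9%). Higher in BMDM were 3, against a background of 5.33%, and higher in MG were 2, against 1.54%. Relative differences were below 0 for 61 and above 0 for 62, with a median of 0.00. Both regions higher in MG are described here. The region assigned to Gabrr2, a rho subunit gene of GABA-A receptors known from the retina, lay between Gabrr2 and Gabrr1 at chr4:33099016-33099703, 17511 bases from the nearest annotated start, and overlapped no RefSeq gene. It held 35.7, 28.5 and 27.2 counts in BMDM 1, 2 and 3 and 120, 72.7 and 98.2 in MG 1, 2 and 3, and fell by 1.48 ± 0.33 (limma adjusted p = 0.0296). In the authors' peak lists, which call peaks in each library by itself, it was called in all 3 MG libraries and in no BMDM library. The region of Grik4, which encodes a high-affinity kainate receptor subunit, lay in intron 1 of 20 at chr9:42896692-42898441. It held 39.7, 50.5 and 65.2 counts in BMDM and 117, 130 and 129 in MG, fell by 1.15 ± 0.31 (adjusted p = 0.0408), and was likewise called in all 3 MG lists and no BMDM list. At both regions every BMDM library lay below every MG library.

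These region counts depend on single libraries. The calls for BMDM and for MG numbered 0 and 0 without BMDM 1, 2 or 3 and without MG 3, 12 and 22 without MG 1, and 9 and 2 without MG 2. Calls over all 87944 regions tested moved too, from 4687 and 1352 with all libraries. They numbered 0 and 0 without BMDM 1, BMDM 2 or MG 3, and 2030 and 413 without BMDM 3. Without MG 1 they numbered 10603 and 11278, and without MG 2 8190 and 2528. With voom weights on the recovered reads the receptor calls were 0 and 0, as over all regions. The authors' deposited table gave 6 receptor regions with an adjusted p under 0.05 that were higher in BMDM (9.06% of all regions) and 8 that were higher in MG (5.38% of all). Those higher in BMDM in the authors' deposited table included 2 of Gabbr2 and 1 of Grm4, and those higher in MG were 2 of Grik4, 2 of Grid2ip and 1 each of Gabrr2, Gabrd, Grik3 and Grin1os.

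**Figure D2:**
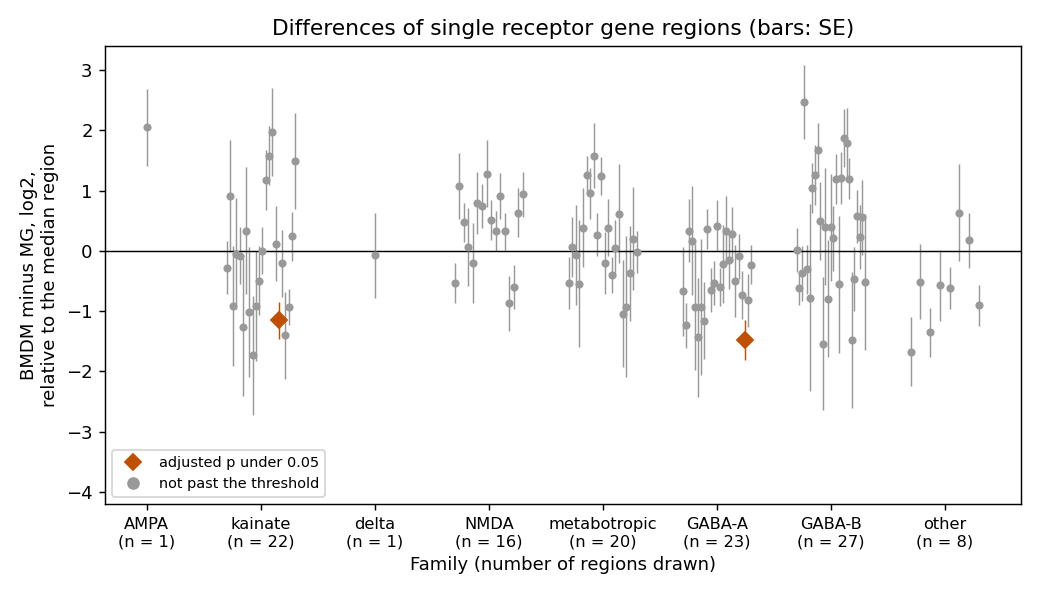
Difference between BMDM and MG on the log2 scale, relative to the median region, for 118 of the 123 receptor regions tested, by family, with bars of 1 SE. Diamonds mark 2 regions past the threshold, both below 0 (Grik4, kainate, and Gabrr2, GABA-A).

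Promoter regions of 22 receptor genes were summed per gene and 20 were tested. None was higher in BMDM (background 2.75%; 2 had an unadjusted p under 0.05) and 5 were higher in MG (background 9.16%), namely Grik4, Gabrd, Grik3, Grin1os and Grid2ip. In this fit the spread was shared across promoters almost entirely, so a promoter's own spread hardly enters its p. The 20 had 10 differences below 0 and 10 above 0 relative to the median promoter, with a median of -0.01. The groups did not overlap for 3 with BMDM higher (background 5.36%) and 7 with MG higher (background 23%).

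The promoter regions of Grik4, one of which spans the sequence printed above, held 175, 131 and 185 counts in BMDM 1, 2 and 3 and 386, 360 and 307 in MG 1, 2 and 3. They fell by 0.79 ± 0.32 (limma adjusted p = 0.00915), with no overlap of the groups. The promoter of Gabrd, the delta subunit of extrasynaptic GABA-A receptors, held 27.8, 27.2 and 50.7 counts in BMDM and 74.6, 114 and 82.6 in MG, a difference of -1.06 ± 0.45 (adjusted p = 0.0236), also without overlap. Its region, chr4:155397483-155398412, overlaps Cfap74 as well. The Grin1os promoter region, chr2:25291647-25293385, overlaps Grin1 too, so its counts cannot be given to one gene. It held 81.3, 113 and 109 counts in BMDM and 154, 304 and 187 in MG, a difference of -0.72 ± 0.35 (adjusted p = 0.0289). The promoter regions of Grid2ip held 97.2, 106 and 145 counts in BMDM and 174, 329 and 215 in MG, a difference of -0.70 ± 0.34 (adjusted p = 0.0301). In all 4 genes the lowest MG library lay above the highest BMDM library.

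Grik3, a kainate receptor subunit gene, was different. Its promoter, with 7 GC boxes in the sequence above, held 11.9, 4.53 and 29.0 counts in BMDM 1, 2 and 3 and 7.14, 128 and 98.2 in MG 1, 2 and 3. The groups overlapped, since MG 1 was below BMDM 1 and BMDM 3. The call (-1.55 ± 0.62, limma adjusted p = 0.0252) was lost without BMDM 1 (0.0589), BMDM 2 (0.261), BMDM 3 (0.191), MG 2 (0.472) or MG 3 (0.541). When MG 1 alone stood for MG the difference was 1.16. Of the 5 calls higher in MG, 1 remained without BMDM 1, 0 without BMDM 2, 1 without BMDM 3, 1 without MG 2, 0 without MG 3 and 5 without MG 1. The 1 was the Grik4 promoter each time. Over all 15249 promoters tested, 1397 were called higher in MG with all libraries. They numbered 824, 843 and 547 without BMDM 1, 2 and 3, and 1846, 751 and 496 without MG 1, 2 and 3. With scaling by library totals or by loess none of the 5 passed (adjusted p for Grik4 0.155 and 0.140). Over all promoters 301 and 461 were then called higher in MG.

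Genes with the highest mean count of a family are described next, whether called or not. Gria3, the only AMPA subunit gene with a region, had 31.7, 33.0 and 23.6 counts in BMDM and 2.38, 8.75 and 14.6 in MG, at a single promoter region, chrX:41401961-41402377. The groups did not overlap, but reads were few (3 in MG 1), and the difference of 2.18 ± 0.71 did not pass (limma adjusted p = 0.124). Among NMDA receptor genes Grin2c, a subunit gene known from cerebellar granule cells and astrocytes, had 811, 506 and 656 counts in BMDM and 597, 434 and 439 in MG, with overlapping groups (0.68 ± 0.28, adjusted p = 0.417). All 7 of its regions had differences above 0 relative to the median region, and 0 passed. Of the 7 regions 4 did not overlap Grin2c itself.

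Grm4, a presynaptic receptor gene of the Gi-coupled metabotropic group, had 456, 521 and 585 counts in BMDM and 447, 423 and 380 in MG, close but not overlapping (0.59 ± 0.27, limma adjusted p = 0.509). Its promoter regions had 230, 254 and 277 counts in BMDM and 154, 145 and 123 in MG (1.16 ± 0.33, adjusted p = 0.0765). They were called higher in BMDM with loess (1.30, limma adjusted p = 0.0113), with the replicate block (0.0309) and without MG 1 (0.0442). No other alternative run called them. Gabrr2 as a whole had 579, 438 and 366 counts in BMDM and 922, 546 and 597 in MG, with overlapping groups (-0.29 ± 0.30, adjusted p = 0.282). Grik4 as a whole had 355, 368 and 451 counts in BMDM and 681, 587 and 536 in MG, and every BMDM library was below every MG library, but the difference of -0.35 ± 0.27 did not pass (adjusted p = 0.187). Summed over regions within 10 kb of a start site it passed (-0.82, adjusted p = 0.0191). Gabbr2 had 657, 1100 and 750 counts in BMDM and 409, 814 and 511 in MG, with overlapping groups (0.82 ± 0.31, adjusted p = 0.319). Its partner Gabbr1, added after its values were seen, had 484, 402 and 444 counts in BMDM and 824, 577 and 688 in MG (-0.37 ± 0.27, adjusted p = 0.176).

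Within single genes, regions were then compared one by one. In Gabbr2 8 of 24 regions had every BMDM library above every MG library and 1 had every BMDM library below, and none passed (lowest limma adjusted p = 0.0511). The background for such separation was 17% of all regions for BMDM higher and 12.9% for MG higher. The regions named from here to the end of the next paragraph were chosen after their values were seen. The region with the smallest p of the gene, in an intron at chr4:46675358-46675588, had 19.8, 34.3 and 32.6 counts in BMDM and 2.38, 5.47 and 7.77 in MG. The strongest region, at chr4:46885618-46886419, had 228, 423 and 136 counts in BMDM and 106, 148 and 88.4 in MG. Another, at chr4:46949519-46950283, ran the other way, with 1.98, 11.0 and 18.1 counts in BMDM and 3.17, 108 and 41.8 in MG, high in MG 2 and MG 3 and not in MG 1. At the Gabbr2 start site itself (chr4:46991462-46991963) the difference was 0.23 ± 0.53 relative to the median region.

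In Grik4, 3 of the 10 regions tested had every BMDM library above every MG library and 2 had every BMDM library below, the start-site region and the called intron 1 region. The start-site region, chr9:42943984-42945440, was called in all 6 peak lists and had 171, 119 and 156 counts in BMDM and 370, 294 and 267 in MG (-0.92 ± 0.30, limma adjusted p = 0.0610). An intron region 84.7 kb from the 5′ end differed by 1.58 ± 0.49 (adjusted p = 0.101). In Grm4 4 of 9 regions tested had every BMDM library above every MG library and 1 every BMDM library below. Its region at chr17:27500828-27502042 had 133, 148 and 94.2 counts in BMDM and 54.7, 65.0 and 48.6 in MG (1.26 ± 0.32, adjusted p = 0.0604). Whether regions within a gene differ from each other in their response was not tested.

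**Figure D3:**
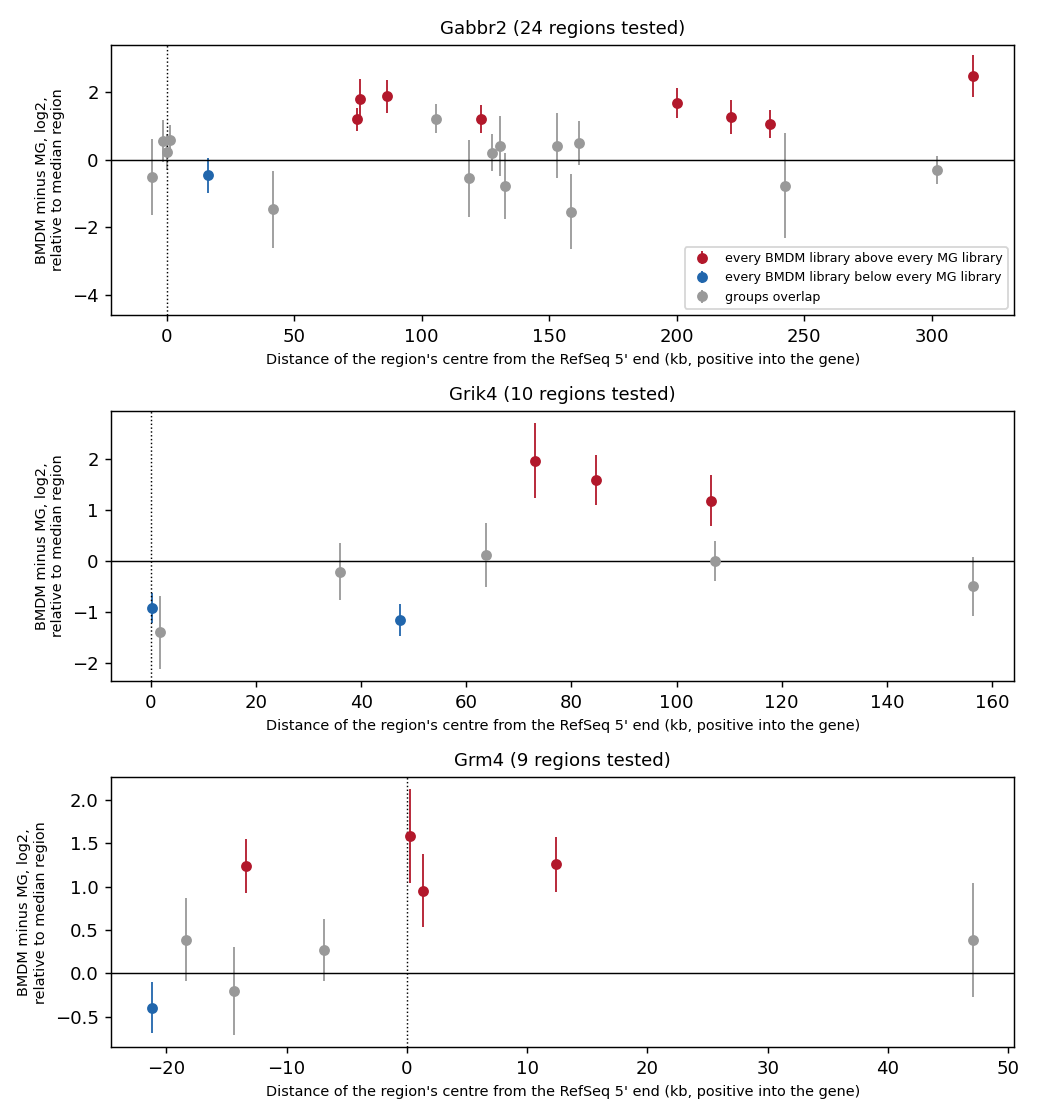
Difference between BMDM and MG on the log2 scale, relative to the median region (y, bars of 1 SE), against the distance in kb from the RefSeq 5′ end (x, dotted line at 0) for the regions tested in Gabbr2 (24), Grik4 (10) and Grm4 (9). Red points have every BMDM library above every MG library, blue points every BMDM library below, and grey points overlap; each gene has both red and blue points.

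By family, the summed counts of the GABA-A genes were 899, 861 and 888 in BMDM 1, 2 and 3 and 1428, 1337 and 1194 in MG 1, 2 and 3, without overlap. Per 100000 counts over all regions they were 6.32, 6.74 and 9.98 in BMDM and 9.35, 10.4 and 9.81 in MG, so on that scale BMDM 3 lay above MG 1 and MG 3 and the groups overlapped. Of the 23 GABA-A regions tested 0 had every BMDM library above (background 17%) and 8 every BMDM library below (background 12.9%), with a median difference of -0.53 relative to the median region. Of these 8, 3 were assigned to Gabrr1 and 3 to Gabrr2, neighbouring genes that had 6 and 8 of the regions tested. Neighbouring regions may not vary independently, so the 8 do not describe the family as a whole. Of the 23 regions 1 was called higher in MG (background 1.54%) and 0 higher in BMDM (background 5.33%). Beside them, 0 of 8 GABA-A genes were called in either direction (1 had an unadjusted p under 0.05, higher in MG, and 0 higher in BMDM). Kainate receptor genes summed to 480, 510 and 861 counts in BMDM and 801, 1187 and 880 in MG, with BMDM 3 above MG 1. NMDA receptor genes summed to 1432, 1204 and 1227 in BMDM and 1497, 1333 and 1271 in MG, metabotropic genes to 996, 1004 and 1194 in BMDM and 841, 1199 and 888 in MG, and GABA-B genes to 1141, 1502 and 1194 in BMDM and 1234, 1392 and 1199 in MG, each with overlap. All 36 together summed to 5217, 5393 and 5783 counts in BMDM and 6216, 7208 and 5943 in MG, without overlap, but per 100000 counts over all regions to 36.7, 42.2 and 65.0 in BMDM and 40.7, 55.9 and 48.8 in MG, with overlap and with BMDM 3 the highest.

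Receptor regions were also counted by the library in which they were highest. The highest count was in MG 2 for 52 of the 138 regions (37.7%, against 29.2% of all regions) and in BMDM 3 for 37 (26.8%, against 10.9%), in MG 1 for 21 (15.2%, against 25.3%), in BMDM 2 for 16 (11.6%, against 17.8%), in BMDM 1 for 7 (5.07%, against 14.3%) and in MG 3 for 5 (3.62%, against 2.46%). BMDM 3 had the fewest reads in regions (4910448), and receptor regions were weaker than all regions (median mean count 22.7 against 45.0). The part of depth and signal strength in these shares was not tested. In 24 regions (17.4%, against 12.7% of all) MG 2 and MG 3, but not MG 1, were above every BMDM library. MG 2 was the highest library in all 3 regions of Grik3, all 4 of Gabrg3, all 3 of Grm3, the 1 of Grin3a and 6 of the 7 of Grm7. The genes and regions named here were chosen after their values were seen. The strongest region of Gabrg3, a gamma subunit gene of GABA-A receptors, lay in an intron at chr7:57307592-57308414 and had 3.97, 6.48 and 30.8 counts in BMDM and 5.55, 82.5 and 55.4 in MG. A region assigned to Grm7, chr6:110139124-110139858, had 7.93, 10.4 and 27.2 counts in BMDM and 6.35, 113 and 38.9 in MG. At both regions MG 1 was lower than the highest BMDM library. The same order of the MG libraries (MG 2, MG 3, MG 1) was found at 9 of 12 oligodendrocyte, 5 of 8 astrocyte and 4 of 9 neuron markers tested. This order, whose share over all genes is not given here, was not limited to neural markers. It was also found at 5 of 11 monocyte and macrophage markers and 3 of 8 neutrophil markers. Endothelial markers had it at 2 of 9, microglial markers at 1 of 12 and T and NK cell markers at 1 of 8. Of the genes with it, Sox10, a transcription factor of oligodendrocytes, had 37.7, 55.7 and 83.3 counts in BMDM and 65.1, 1102 and 518 in MG, and Syt1, a synaptic vesicle protein gene, 39.7, 22.0 and 63.4 in BMDM and 19.8, 238 and 122 in MG. Other neuron markers had another order: Snap25, a synaptic membrane protein gene, had 45.6, 29.1 and 61.6 counts in BMDM and 229, 214 and 194 in MG, and Rbfox3, which encodes NeuN, 190, 319 and 350 in BMDM and 535, 332 and 367 in MG, both highest in MG 1. The part of oligodendrocytes, astrocytes and neurons in the result was not tested.

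**Figure D4:**
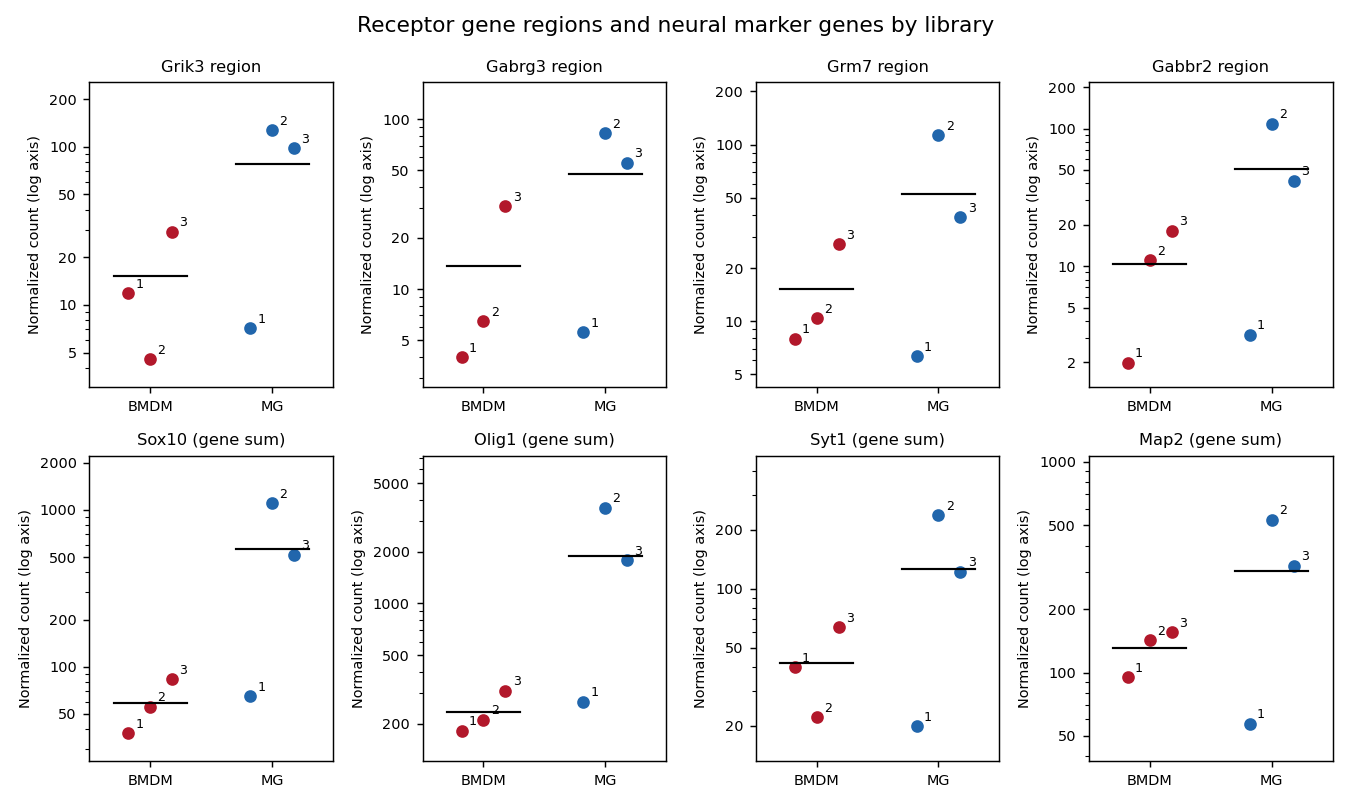
Normalized counts (log axes) in each library (points numbered 1 to 3, BMDM left of MG, lines at the group means) of a region each of Grik3, Gabrg3, Grm7 and Gabbr2 (upper row) and of the neural marker genes Sox10, Olig1, Syt1 and Map2 (lower row). In all 8 panels MG 2 is the highest, MG 3 the next, and MG 1 lies below both; the regions and genes drawn were chosen for this order after their values were seen, and the neuron markers Snap25 and Rbfox3, not drawn, were highest in MG 1.

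With MG 1 alone in the MG group, an alternative chosen after seeing the data, the difference for Gria3 was 3.53, against 2.18 with all 6 libraries. MG 1 held 3 reads there. Without MG 1 instead, Gabrd, Gabrg3, Grid2ip, Grik3 and Grin1os were called higher in MG, 5 of the 31 receptor genes tested. Over all 18246 genes tested, calls higher in MG then numbered 2246, against 640 with all libraries. For Grik3 the difference was then -2.46 and for Gabrg3 -2.44, against -1.14 and -1.20 with all 6 libraries. In both of these fits the spread was shared across genes almost entirely.

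In the authors' peak lists, with an overlap of at least 1 base, 17, 42 and 6 of the 138 receptor regions were called in BMDM 1, 2 and 3, and 50, 95 and 51 in MG 1, 2 and 3. The shares were 12.3%, 30.4% and 4.35% in BMDM and 36.2%, 68.8% and 37.0% in MG, below those over all regions in every library (34.7%, 54.5% and 17.9% in BMDM and 51.7%, 73.7% and 53.8% in MG). All 6 lists held 5 receptor regions (3.62%), against 16.8% of all regions, and the MG 2 list alone held 37 (26.8%), against 15.3%. Some MG list but no BMDM list held 76 (55.1%, against 34.9% of all), and some BMDM list but no MG list held 11 (7.97%, against 9.86%). Peak calls depend on depth, which was lowest in BMDM 3, so this is a description.

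Genes that work with the receptors were read from 4 lists. Of 15 receptor partner genes tested (auxiliary subunits of AMPA, kainate and NMDA receptors and proteins that traffic them) 1 was called for BMDM and 3 for MG, with a median difference of -0.27 relative to the median gene. Higher in BMDM was Sorcs2, a sorting receptor (109, 174 and 163 counts in BMDM and 18.2, 84.2 and 44.7 in MG; 2.07 ± 0.47, limma adjusted p = 0.0362). Higher in MG were the AMPA receptor auxiliary subunit genes Cacng4 (510, 661 and 712 in BMDM and 1545, 2178 and 1589 in MG; -1.22 ± 0.29, adjusted p = 0.00868), Cacng7 (-2.38 ± 0.58, 0.0158) and Shisa7 (-1.35 ± 0.32, 0.0105). Among 24 excitatory scaffold and synapse organizer genes 0 were called for BMDM and 2 for MG, the neuronal pentraxin Nptx1 and its receptor gene Nptxr (-0.78 and -1.21), with a median of -0.31. Among 11 inhibitory scaffold and GABA-B partner genes 0 were called for BMDM and 1 for MG, with a median of -0.01.

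Genes of transmitter synthesis and transport were called in both directions, 3 of 20 for BMDM and 2 for MG, with a median of -0.02. Higher in BMDM were the glial glutamate transporter gene Slc1a2 (1089, 870 and 558 counts in BMDM and 325, 362 and 283 in MG; 1.60 ± 0.30, limma adjusted p = 0.0173) and the vesicular glutamate transporter genes Slc17a6 (2.02 ± 0.44, 0.0312) and Slc17a8 (1.70 ± 0.41, 0.0491). Higher in MG were the other glial glutamate transporter gene Slc1a3 (778, 742 and 1025 counts in BMDM and 2126, 4342 and 2882 in MG; -1.56 ± 0.33, adjusted p = 0.00725) and Abat, the enzyme that breaks down GABA (-1.81 ± 0.48, 0.0196). For both Slc1a2 and Slc1a3 the groups did not overlap. The genes of these lists named here as higher in MG were highest in MG 2, the library in which the oligodendrocyte, neuron and astrocyte lists were highest, and the part of those cells in the result was not tested.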

How the data were processed

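Accessibility was measured in 3 BMDM and 3 MG libraries. DESeq2 1.36.0, ChIPseeker 1.32.1, MACS2 2.1.1.20160309, Bowtie2 2.4.1 and cutadapt 1.8.1 are named, with the build mm10, in the submitters' processing notes. The deposited table holds log2 values per region, which are the authors' variance-stabilized counts, with their mean normalized count (a signal scaled by size factors), log2 fold change and p-value. The deposited peak lists give the authors' fold enrichment ratio and −log10 p and q for each peak of a library. Per the file headers, 8 further columns match none of the libraries and were not used.

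Of 93084 lines 155 were repeats and 65 had no annotation, which left 92864 regions. The log2 values were turned back into normalized counts, whose mean matched the authors' to a relative error of 2.37e-06 at most. Multiplied by size factors, 100% came out as whole reads (within 0.02). Differences were tested on log2(normalized count + 1) with limma 3.58.1 (R 4.3.3, two-sided, variance trend, Benjamini-Hochberg adjustment over all features with a mean of at least 10), for genes (regions within 100 kb of a start summed), single regions and promoters (regions annotated as promoter, within 3 kb, summed). The scripts were tested on simulated data. Alternatives were library totals, loess, voom on the recovered reads, a pseudocount of 5, the deposited log2 values, no filter, robust moderation, a replicate block, other windows and each library left out.

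Named with values in every library were genes past the threshold for genes or promoters, the gene with the highest mean count of each family, and regions past the threshold. Some genes that this rule names are not reported here, nor drawn in the figures. The members and lists were chosen with earlier results of these data known. RefSeq (GRCm38.p6) supplied gene overlaps and promoter sequences.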

Additional observations from a re-analysis of the deposited data

How the results depend on the processing

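Counts of receptor genes, regions and promoters past the threshold depended on the library set and on the scaling. Genes higher in BMDM (1 with all libraries) ranged from 0 to 1 when each library was left out, and genes higher in MG (0) from 0 to 5. Over all 18246 genes tested these calls ranged from 0 to 730 and from 0 to 2246. Receptor genes higher in MG numbered 1 with library totals, 1 with robust moderation and 2 with regions within 10 kb. Over all genes tested 245, 954 and 1044 were then called higher in MG. With regions within 10 kb, 22 receptor genes were tested, of 16802 genes in all. Regions higher in BMDM (3) ranged from 0 to 12 and those higher in MG (2) from 0 to 22 with each library left out. Over all 87944 regions tested these calls ranged from 0 to 10603 and from 0 to 11278. Receptor regions numbered 5 and 1 with library totals, 5 and 5 with loess, and 0 and 0 with voom. Over all regions the calls were 7030 and 1136 with library totals and 6950 and 2305 with loess, while voom called 0. Without these alternatives 17 receptor regions higher in BMDM and 9 higher in MG had an unadjusted limma p under 0.05. Promoters higher in BMDM (0) ranged from 0 to 1 and those higher in MG (5) from 0 to 5. They numbered 0 and 0 with library totals, 1 and 0 with loess, and 0 and 1 with voom. With MG 1 as the only MG library, an alternative chosen after seeing the data, the difference of the Grik3 promoter reversed to 1.16. The one MG library is assumed there to vary like BMDM. The cause was not tested for any of these.

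The libraries of the groups share only replicate numbers. Deviations of same-numbered libraries correlated at 0.546, -0.163 and 0.451. Those of differently numbered libraries ran from -0.598 (BMDM 3 with MG 1) to 0.554 (BMDM 3 with MG 2). The highest value was thus not that of a same-numbered pair. With the replicate number as a block 4 of 31 receptor genes were higher in MG, against 2333 of all 18246 genes. Receptor regions numbered 10 higher in BMDM and 7 higher in MG of 123, against 9212 and 5215 of all 87944. Receptor promoters numbered 1 higher in BMDM and 7 higher in MG of 20, against 539 and 2044 of all 15249. Without the block the calls over all features were 640 genes higher in MG, 4687 and 1352 regions, and 419 and 1397 promoters.

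In the peak lists, an overlap of 50% of the region left 9, 36 and 1 receptor regions in BMDM 1, 2 and 3. In MG 1, 2 and 3 it left 37, 84 and 32. These were 6.52%, 26.1% and 0.725% of receptor regions in BMDM and 26.8%, 60.9% and 23.2% in MG. Of all regions it left 24.3%, 47.4% and 7.40% in BMDM and 44.0%, 68.6% and 43.5% in MG. A −log10 q of at least 10 left 11, 28 and 2 receptor regions in BMDM 1, 2 and 3 and 33, 61 and 27 in MG 1, 2 and 3. These were 7.97%, 20.3% and 1.45% of receptor regions in BMDM and 23.9%, 44.2% and 19.6% in MG. Of all regions this rule left 25.5%, 43.5% and 12.1% in BMDM and 43.7%, 57.5% and 42.5% in MG. Only genes with the highest mean count of a family and features past the threshold were followed through every alternative. Among these the Grik3 promoter was the only one whose difference relative to the median changed sign in any run. Before the shift to the median, signs changed with library totals or loess for 6 of 31 receptor genes tested. They did so for 14 of 123 receptor regions and 4 of 20 receptor promoters.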
